A study of Mus musculus with 8 samples.

Results

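The nuclear genes of oxidative phosphorylation were taken as the 85 protein-coding genes on mouse chromosomes 1 to 19 whose symbols mark them as subunits of complexes I to V, out of 20665 protein-coding genes on those chromosomes. They comprised 39 genes of complex I (symbols starting Ndufa, Ndufb, Ndufc, Ndufs or Ndufv, without the Ndufaf assembly factors), 4 of complex II (Sdha to Sdhd), 8 of complex III (Uqcr), 17 of complex IV (Cox4i to Cox8) and 17 of complex V (Atp5). The choice rested on names and position alone, and 3 X-linked genes (Cox7b, Ndufa1 and Ndufb11) and 19 pseudogenes with such symbols stayed out. The 85 genes lay on 18 chromosomes, with none on chromosome 14. The symbol rule places Ndufa4, a protein now known as a companion of complex IV, and Ndufa4l2 in complex I, and it places Cox7a2l, a supercomplex factor, in complex IV.

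The data were ChIP-seq peak lists from primary neural progenitor cells of the hippocampus of male C57BL/6 mice, all untreated as far as the labels say, with no age given. Chromatin fixed with formaldehyde was precipitated for Mgea5 (the O-GlcNAcase Oga, which takes O-GlcNAc off proteins), Panx2 (a pannexin, of a family of membrane channels) and Polr1c (part of both RNA polymerase I and RNA polymerase III), with 2 replicates each. Another 2 input libraries were not analysed here, which leaves 6 lists from 8 samples. The labels do not tie the replicates to different cultures or mice, so differences between replicates may be technical. Peak lists hold no expression with which to check the cell type.

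Complexes I to IV pass electrons from NADH and succinate to oxygen and, all but complex II, pump protons across the inner mitochondrial membrane, and complex V, the ATP synthase, makes ATP from the returning protons. A few subunits are encoded by mitochondrial DNA, and the rest come from genes spread over the nuclear chromosomes. Their promoters are known for sites of the nuclear respiratory factors NRF1 and GABP (an ETS factor) and of YY1. RNA polymerase III, which holds Polr1c, transcribes tRNA genes, whose internal promoter consists of an A box and a B box.

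Each list gave positions with the authors' fold enrichment and −log10 p and q. The lists held 536877 and 521566 peaks for Mgea5 (replicates 1 and 2), 145405 and 478662 for Panx2, and 826 and 35927 for Polr1c. Their median folds were 1.71 and 1.71, 1.80 and 1.84, and 3.05 and 2.75. Only 114 and 117 Mgea5 peaks, 12 and 376 Panx2 peaks, and 246 and 1407 Polr1c peaks reached a −log10 q of 2. Peak names placed replicate 1 of Panx2 and of Polr1c in one calling directory and the other 4 lists in another, so for these proteins the replicate and the calling directory cannot be told apart. A gene was counted for a list when a peak overlapped the 1000 bp on either side of one of its ends by at least 1 bp. The lists are lenient and of unequal length, so each count is read against the percent of all protein-coding genes that met the same rule in the same list, and folds are compared within a list only.

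The oxidative phosphorylation genes were compact, with a median length of 7279 bp (471 to 105383) against 17491 bp for all protein-coding genes. An end window was shared with another protein-coding gene at 52 of them (61.2%), against 33.2% of all, so that many peaks here cannot be assigned to 1 gene. Strand and a promoter sequence were available in the RefSeq promoter table for 68 of the 85.

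The lowest q-values in the set were those of Polr1c at Atp5l, Atp5b and Ndufs7, at Atp5b in replicate 2 only. Both Polr1c replicates had a peak at 2 of the 85 genes, Ndufs7 and Atp5l (2.35%, against 0.552% of all protein-coding genes). Replicate 1 had no other gene of the set (2 genes, against 0.629%). Replicate 2 had 17 (20%), which is near its background of 18.4%. The sequences under or beside the peaks of the 3 genes with the lowest Polr1c q-values are given next, because they differ in what they hold. All are mouse RefSeq sequence of GRCm38.p6, whose coordinates are those of mm10, written 5′ to 3′ on the strand of the gene.
Ndufs7 under the Polr1c peak of replicate 2, chr10:80249199-80249361, plus strand, with the bases of the asparagine tRNA gene n-TNgtt7 in capitals: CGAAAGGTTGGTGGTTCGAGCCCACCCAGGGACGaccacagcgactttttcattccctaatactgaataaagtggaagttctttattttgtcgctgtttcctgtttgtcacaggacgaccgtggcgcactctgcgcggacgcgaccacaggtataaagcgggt
Atp5l before its start, chr9:44920743-44920992, minus strand, with a CCAAT, an ETS letter string, an E-box and a TATA string in capitals: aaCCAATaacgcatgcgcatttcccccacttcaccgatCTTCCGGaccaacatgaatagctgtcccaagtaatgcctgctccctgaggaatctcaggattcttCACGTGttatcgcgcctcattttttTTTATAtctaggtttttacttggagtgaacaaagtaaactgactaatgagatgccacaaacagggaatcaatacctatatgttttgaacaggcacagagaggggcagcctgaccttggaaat
Atp5b before its start, chr10:128083057-128083306, plus strand, with 5 CCAAT strings and 2 GGGCGG strings on either strand in capitals: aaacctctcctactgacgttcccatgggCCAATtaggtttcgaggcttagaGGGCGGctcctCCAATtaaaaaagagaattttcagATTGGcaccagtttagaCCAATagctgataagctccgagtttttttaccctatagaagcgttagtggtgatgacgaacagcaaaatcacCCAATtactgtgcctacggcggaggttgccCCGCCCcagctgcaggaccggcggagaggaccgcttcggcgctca

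Ndufs7 (chr10:80249105-80256794, plus strand) encodes a core iron-sulfur subunit of complex I. It was the only gene of the set with a peak in all 6 lists, which 0.14% of all protein-coding genes had. Its Polr1c peaks had folds of 7.40 and 3.48, with q-values of 2.36e-09 and 3.43e-06. They ran from 169 bp before to 243 bp after the outermost annotated start in replicate 1 and from 189 bp before to 256 bp after it in replicate 2. Both peaks covered 2 tRNA genes, the phenylalanine gene n-TFgaa3, which lies 69 bp before the gene, and n-TNgtt7, which starts 54 bp inside it. The promoter table places a start of Ndufs7 transcripts 344 bp inside the gene, downstream of both tRNA genes. The printed stretch holds the last 34 bases of n-TNgtt7, with a B box (searched as GGTTCGA, any 2 bases and CC, on either strand), and all 163 of its bases lie under the replicate 2 peak. That string was found in the 300-base promoter window (250 before to 50 after the start) of 1 of the 68 genes, Ndufs7, and of 0.146% of all protein-coding promoters. It was searched after the tRNA genes had been seen.

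Ndufs7 also had the highest mean Mgea5 fold of the set, at 2.42 and 2.46. Its Mgea5 peaks, chr10:80249130-80251311 and chr10:80248699-80249811, overlapped by 682 bp, and both overlapped the Polr1c peaks. Their q-values were 0.00949 and 0.00650, and no other gene of the set had a Mgea5 peak with a −log10 q of 2 or more, against 0.411% and 0.474% of all protein-coding genes in replicates 1 and 2 and 0.266% in both. The Panx2 values at Ndufs7 were low, 1.73 and 1.65, both with a q of 1. The replicate 1 peak lay at the start and the replicate 2 peak beyond the far end, where it reaches into Gamt. Ndufs7 was the only one of the 85 genes with a tRNA gene in an end window, a feature of 40 protein-coding genes in all. Of those 40, 20 had Polr1c peaks in both replicates (50%), against 0.456% of genes without one.

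Atp5l (chr9:44913248-44920742, minus strand) encodes the small membrane subunit g of the ATP synthase. Its Polr1c peaks had the highest folds of the set, 14.4 and 6.00, with q-values of 3.33e-28 and 1.56e-17. They lay 136 to 667 bp and 251 to 610 bp before its start and overlapped by 360 bp. No tRNA gene was annotated there. Both peaks lay inside the long noncoding RNA gene Gm30934 (chr9:44920727-44924245), whose annotation overlaps the 5′ end of Atp5l. Of the 250 bases printed above, the first 115 lie under the replicate 1 peak and none under that of replicate 2. The other proteins had only weak peaks at Atp5l. Mgea5 had no peak in replicate 1 and a fold of 1.74 in replicate 2, and Panx2 had none in replicate 1 and 2.21 in replicate 2.

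**Figure D1:**
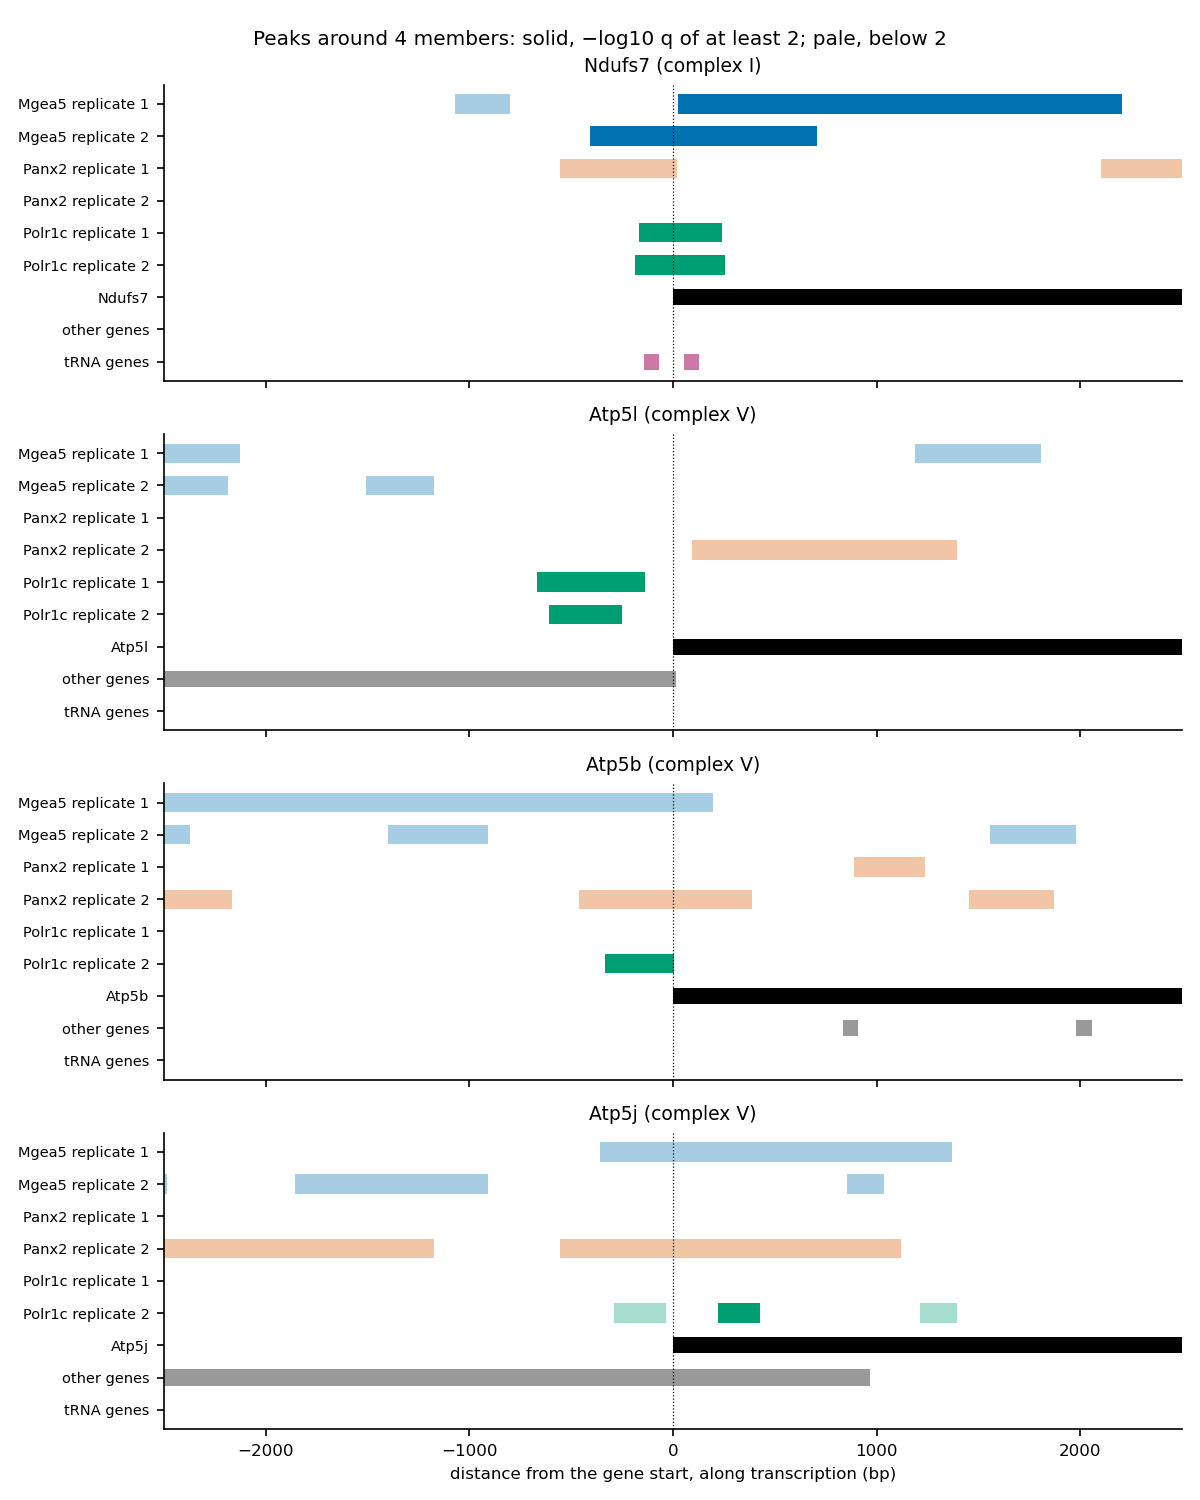
Peaks of the 6 lists around the starts of Ndufs7, Atp5l, Atp5b and Atp5j, as bars on an axis of distance in bp from the gene's start along transcription, with annotated genes and tRNA genes below. Solid bars have a −log10 q of at least 2, and pale bars a lower one. At Ndufs7 the Polr1c peaks of both replicates cover 2 tRNA genes, and at Atp5l they lie before the start with no tRNA gene.

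Raising the threshold to a −log10 q of at least 2 left 5 genes in Polr1c replicate 2, against 2.3% of all protein-coding genes, and 4 of them belong to complex V. They were Atp5l, Atp5b, Atp5h and Atp5j beside Ndufs7. In replicate 1 the same threshold left Ndufs7 and Atp5l, against 0.406%, and both genes also passed it in both replicates, against 0.353%. No replicate 1 peak lay in the windows of Atp5b, Atp5h or Atp5j, and replicate 1 held only 826 peaks.

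Atp5b (chr10:128083307-128090388, plus strand) encodes the catalytic beta subunit of the F1 head. Its Polr1c fold was 5.61 in replicate 2, with a q of 1.43e-15. The peak, chr10:128082971-128083313, spanned the start and all 250 printed bases. It lay wholly under a Mgea5 peak of replicate 1 (fold 1.91) and a Panx2 peak of replicate 2 (fold 1.72), whereas the Mgea5 peak of replicate 2 (1.5) and the Panx2 peak of replicate 1 (1.74) lay elsewhere.

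Atp5h (chr11:115415691-115419919, minus strand) encodes subunit d of the peripheral stalk. Its replicate 2 Polr1c peak (fold 3.54, q 3.90e-04) lay 487 to 740 bp before the start, inside the neighbouring gene Kctd2. Beyond the far end of Atp5h, outside the 1000 bp window, both Polr1c replicates had a peak over tRNA genes. The replicate 1 peak (6.24) covered n-TRcct5, n-TRcct3 and n-TRtcg4, and that of replicate 2 (3.28) covered n-TRtcg4. With windows of 2500 bp Atp5h therefore became the only further gene with both replicates, beside Ndufs7 and Atp5l.

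Atp5j (chr16:84827871-84835857, minus strand) encodes coupling factor 6, also of the stalk. It overlaps Gabpa, the gene of the ETS subunit of GABP. Its replicate 2 Polr1c peaks had folds of 3.87 (q 0.00573) inside the gene and 2.46 (q 1) spanning 35 to 292 bp before its outermost start. The stronger peak covered a start that the promoter table places 232 bp inside the gene. Both peaks fell under a Mgea5 peak of replicate 1 (1.61) and a Panx2 peak of replicate 2 (2.26). Both also lie inside Gabpa, so they cannot be assigned to Atp5j alone.

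Counted by complex, Polr1c replicate 2 had a peak at 7 of 17 complex V genes (41.2%), 4 of 17 complex IV genes, 2 of 8 of complex III, 1 of 4 of complex II and 3 of 39 complex I genes (7.69%). Complex V was thus above the list's background of 18.4% and complex I below it, in a single replicate. The difference between the complexes was not tested. Within complex V the genes were spread over its parts. The F1 head had Atp5b, Atp5d (2.61, q 0.373) and Atp5e (2.47, q 0.997) of 5 genes. The peaks of Atp5d and Atp5e lay beyond the far ends of these genes, that of Atp5d inside Midn. The stalk had Atp5h and Atp5j of 4. The c-ring had Atp5g3 (2.92, q 0.498) of 3, and the small membrane subunits had Atp5l of 5. At a −log10 q of 2 the complex V share was 4 of 17 (23.5%). Only the Ndufs7 peaks, among the 2 peaks of replicate 1 and the 19 of replicate 2 in the windows of the set, covered a tRNA gene.

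The remaining Polr1c genes of replicate 2 were Cox4i1 (3.74, q 0.0151), Ndufa5 (3.36), Cox6b2 (3.28), Ndufb5 (3.06), Cox6c (3.01), Cox4i2 (2.65), Uqcrh (2.50), Sdhc (2.0) and Uqcrfs1 (2.0). After Cox4i1 the lowest q among them was 0.103, at Cox6c. The median over the 17 genes was 3.06, against 2.75 for all protein-coding genes with a peak in that list.

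**Figure D2:**
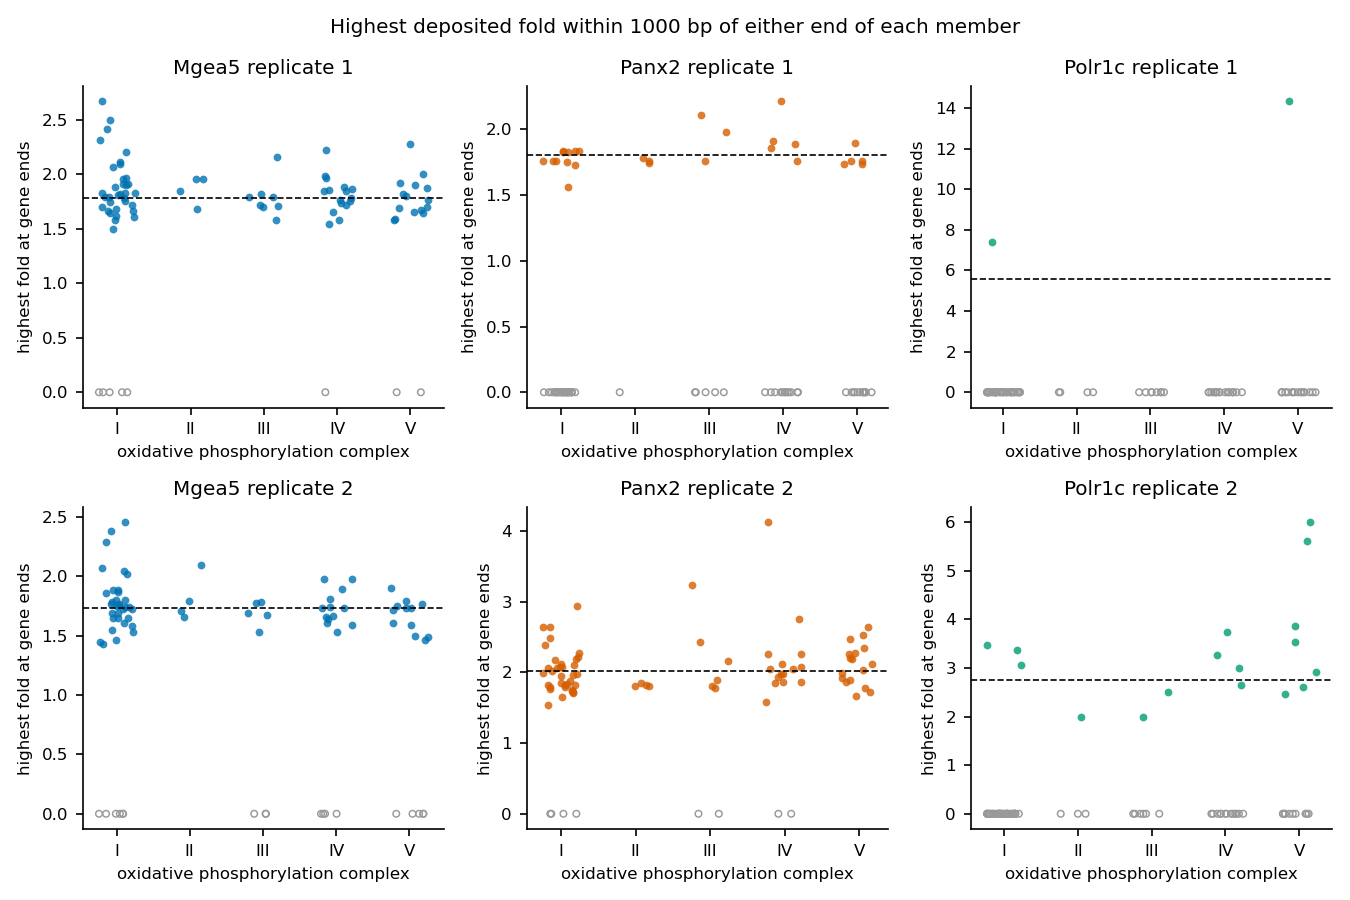
Highest fold per gene in each of the 6 lists, by complex I to V. Each point is 1 of the 85 genes, open grey points have no peak, the dashed line is the median fold of all protein-coding genes with a peak, and the vertical scale differs between panels. For Polr1c, Atp5l stands out in both replicates, Ndufs7 in replicate 1 and Atp5b in replicate 2, and most Mgea5 and Panx2 values lie around the dashed line.

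Mgea5 peaks lay at most of the genes, close to the rate of genes in general. Replicate 1 had 77 of the 85 (90.6%, against 84.1%), replicate 2 had 67 (78.8%, against 74.3%) and both had 62 (72.9%, against 67.4%). Folds were those of any gene, with a median among genes with a peak of 1.80 in replicate 1 and 1.74 in replicate 2, against 1.78 and 1.73 over all protein-coding genes. A −log10 q of 0, the lowest possible, was listed for 51 of the 77 and 54 of the 67 genes. The matching share of all protein-coding genes was not counted, so these numbers do not mark the set out.

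By complex, both Mgea5 replicates had peaks at 30 of 39 genes of complex I (76.9%) and 4 of 4 of complex II (100%). The counts were 5 of 8 in complex III (62.5%), 12 of 17 in IV (70.6%) and 11 of 17 in V (64.7%). Against the 67.4% of all protein-coding genes, complexes III and V were thus below and complex IV near. In complex I both replicates had peaks at 5 of the 7 core subunits (71.4%) and 25 of 32 accessory subunits (78.1%). All 4 succinate dehydrogenase genes had them. By the mean of both replicates Sdha, the flavoprotein that oxidises succinate, was highest (1.85 and 2.10), although in replicate 1 alone Sdhb (1.95) and Sdhc (1.95) stood above it.

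A gene's 2 folds are its highest in each replicate and need not come from the same end. At 22 of the 62 genes the strongest Mgea5 peaks lay at different ends, and 4 of the 62 had no end with a peak of both replicates. Ends were compared in this way for the set only, not for all protein-coding genes. Complex I supplied 8 of the 10 genes with the highest mean Mgea5 fold. After Ndufs7 came Ndufs1, the largest iron-sulfur subunit (2.32 and 2.38), and Ndufa10, an accessory subunit of the membrane arm (2.68 and 2.04). The Ndufs1 values came from different ends of the gene, and at the end where its replicate 1 peak lay they were 2.32 and 2.19. At Ndufa10 both peaks overlapped the start, with q-values of 0.0404 and 0.642, and a Panx2 peak of replicate 2 (2.95, q 0.0141) lay there too. Next in order were Ndufb6 (2.50 and 1.80), Cox6c (2.22 and 1.98), Ndufs3 (2.07 and 2.07), Ndufb5 (1.83 and 2.28), Ndufb3 (1.96 and 2.02), Sdha and Ndufa5 (2.21 and 1.72). The values of Ndufb6 and Cox6c also came from different ends, and at the end of the replicate 1 peak they were 2.50 and 1.68 for Ndufb6 and 2.22 and 1.75 for Cox6c. Complex III was led by Uqcrfs1, the Rieske iron-sulfur protein, with 2.16 at the far end and 1.69 at the start. At the start its values were 1.61 and 1.69, below the 1.79 and 1.77 that Uqcrb, a small subunit, had at a single end. Complex V was led by Atp5mpl, a small membrane subunit, with 2.28 and 1.61 from different ends. At the end of its replicate 2 peak its values were 1.51 and 1.61. That is below the 2.0 and 1.79 that Atp5o, the stalk subunit OSCP, had at a single end. Replicates agreed little on the order of the genes, with a Spearman rho of 0.286 over the 62 genes with both (0.127 over all protein-coding genes with both), given as a description of folds that share their 2 lists and can come from different ends.

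Atp5e, the epsilon subunit of the F1 head, and Ndufa6 and Ndufb4b of complex I had no Mgea5 peak in either replicate. Another 20 genes had a peak in a single replicate. Such gaps were common in general. A Mgea5 peak was at 84.1% of all protein-coding genes in replicate 1, 74.3% in replicate 2 and 67.4% in both. Ndufb4b and Ndufb4c bear the name of Ndufb4, and how reads shared by near-identical copies were treated is not given in the sources used here, so their values are uncertain. Among the 8 isoforms known for expression in other tissues or conditions, 4 had Mgea5 peaks in both replicates (50%, against the 67.4% of all protein-coding genes). These were Cox6a2 (1.58 and 1.89) and Cox8b (1.76 and 1.59), both heart and muscle forms, and Cox7b2 (1.76 and 1.74) and Cox8c (1.99 and 1.73), both testis forms. Cox4i2, Cox6b2 and Ndufa4l2 had a peak in replicate 1 only (1.89, 1.74 and 1.79), and Cox7a1 in replicate 2 only (1.60). The share with both replicates was 75.3% without these 8 genes.

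**Figure D3:**
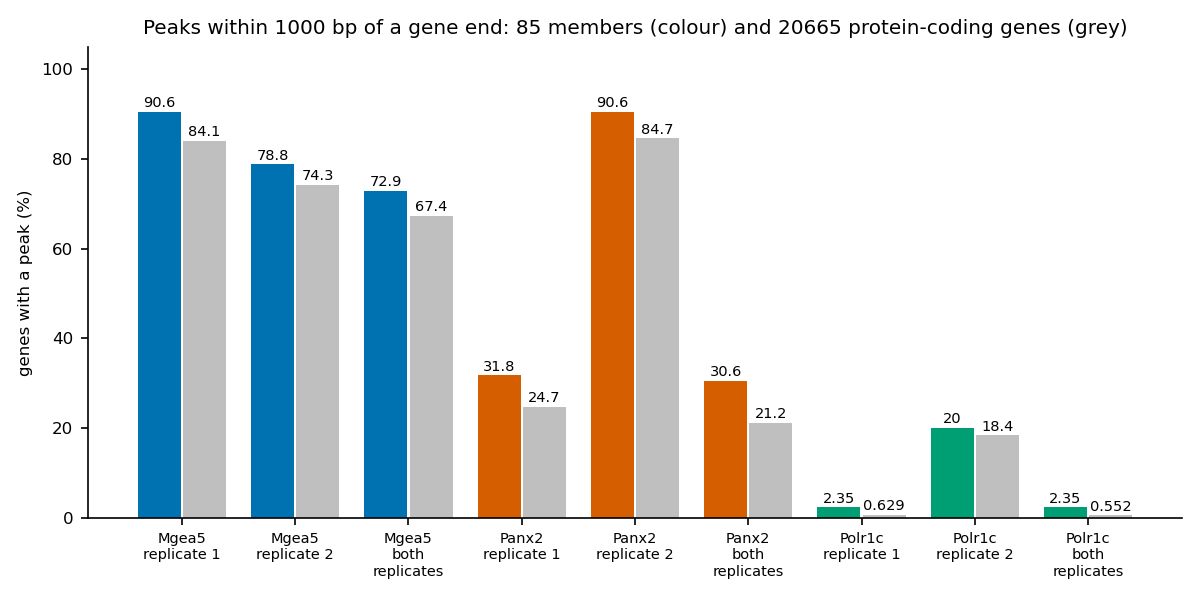
Percent of genes with a peak within 1000 bp of a gene end, in each list and in both replicates, on an axis from 0; coloured bars are the 85 genes and grey bars all 20665 protein-coding genes. For both replicates the set stands at 72.9% for Mgea5, 30.6% for Panx2 and 2.35% for Polr1c, against 67.4%, 21.2% and 0.552%.

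Panx2 lists differed between replicates in how many genes they reached. Replicate 1 had a peak at 27 of the 85 genes (31.8%, against 24.7%) and replicate 2 at 77 (90.6%, against 84.7%). Both replicates had 26 genes (30.6%, against 21.2%), and the shorter list of replicate 1 limits that count. No gene had a −log10 q of 2 or more in replicate 1 or in both replicates, against 0% of all protein-coding genes in each case. The folds of replicate 1 hardly separated genes: all 27 had a q of 1, and 8 of them shared the fold 1.76.

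The exception in replicate 2 was Cox5a, a nuclear-encoded subunit of cytochrome c oxidase, the only gene of the set with a −log10 q of at least 2 (against 0.252% of all protein-coding genes). Its Panx2 peak, chr9:57516775-57517133, had a fold of 4.13 and a q of 3.82e-04. It lay 195 to 553 bp before the outermost start of the gene (chr9:57517328-57532427, plus strand), while the promoter table places the start of Cox5a 3904 bp further in. Replicate 1 had no Panx2 peak in the windows of Cox5a. A Mgea5 peak of replicate 1 with a fold of 1.64 covered the whole Panx2 peak, the Mgea5 values of the gene were 1.86 and 1.98, and Polr1c had none.

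The Panx2 folds of a gene often came from different ends. At 13 of the 26 genes the strongest peaks of the replicates lay at different ends, and 6 of the 26 had no end with both. Here too the comparison of ends covered the set only. By the mean of the highest folds Uqcrh, the hinge protein of complex III, was highest (1.76 and 3.23, with a q of 0.0233 in replicate 2). Cox4i1, the common form of subunit 4 of cytochrome c oxidase, followed (1.86 and 2.76). The next were Cox6b1 (2.22 and 2.12), Atp5o (1.76 and 2.65), Ndufa13 (1.76 and 2.65), Uqcrfs1 (2.11 and 2.16), Atp5h (1.76 and 2.47), Atp5a1, the alpha subunit of the F1 head (1.74 and 2.35), Cox7a2 (1.76 and 2.27) and Cox7a2l (1.92 and 2.07). Among these 10 genes the values of Cox4i1, Ndufa13 and Cox7a2l came from the same end in both replicates and those of the other 7 did not. A shared end is a shared window only: the peaks of the replicates overlapped at Ndufa13 and did not at Cox4i1. At Uqcrh, 1.76 lay at the far end and 3.23 at the start, and the far end had 1.76 and 1.80. Uqcrfs1, Atp5h and Cox7a2 had no end with both replicates. None of the 10 was from complex II, although 3 of its 4 genes had both replicates (75%, against 21.2% of all protein-coding genes). The counts for the others were 10 of 39 in complex I (25.6%) and 3 of 8 in complex III (37.5%). Complexes IV and V had 5 of 17 each (29.4%). Replicate 2 alone reached all 17 complex V genes, against 84.7% of all protein-coding genes. Over the 26 genes the Spearman rho between replicates was 0.113 (0.0108 over all protein-coding genes), again as a description.

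Counted over the proteins, 19 genes had both replicates of none (22.4%, against 27.6%), 43 of 1 protein (50.6%, against 55.6%), 22 of 2 (25.9%, against 16.6%) and 1, Ndufs7, of 3 (against 0.14%). Both Mgea5 and both Panx2 replicates lay at 23 genes (27.1%, against 16.4%). Each of the 85 genes had a peak in at least 1 list, which 4.79% of all protein-coding genes did not. Ndufa6, Ndufb4b, Ndufb4c, Uqcr11 and Uqcrc2 had it in only 1 (5.88%, against 7.34%), and Ndufb5, Sdhc, Uqcrfs1, Uqcrh, Cox4i1, Atp5b and Atp5g3 had it in 5 (8.24%, against 3.91%).

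The shares were compared with those of genes of similar size, using the 43 genes of the set and the 4717 protein-coding genes with lengths between 3912 and 12417 bp. Mgea5 had both replicates at 33 of the 43 (76.7%, against 69.8%), Panx2 at 17 (39.5%, against 20.6%) and Polr1c at 2 (4.65%, against 0.551%). Shared ends went with the Mgea5 background. Among genes with a shared end, both replicates had peaks at 38 of the 52 in the set (73.1%), below the 77.7% of all such genes. Among genes without one they had peaks at 24 of the 33 in the set (72.7%), above the 62.3% of all such genes. How far shared ends account for the shares was not tested.

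At the 68 genes with a strand, Mgea5 peaks of both replicates were at the start of 36 (52.9%, against 42.1%) and at the far end of 27 (39.7%, against 38.7%). For Panx2 the counts were 7 (10.3%, against 9.89%) and 9 (13.2%, against 8.21%), and for Polr1c 2 (2.94%, against 0.474%) and 0 (against 0.0608%). The Mgea5 share was thus 10.9 percentage points above that of all genes at the start and 1.02 at the far end, and this difference was not tested. At 200 bp inside the start, Mgea5 peaks covered 58.8% of the genes in replicate 1 and 23.5% in replicate 2, against 36.2% and 14.1% of all genes. Panx2 peaks covered 5.88% and 60.3% there, against 3.23% and 47.1%. Panx2 replicate 2 was below all genes at the start itself (33.8%, against 38.2%) and at 1000 bp inside (23.5%, against 31.6%). At 5000 bp before the start the Mgea5 values were 22.1% and 17.6%, against 17.3% and 12.5%. Mgea5 replicate 2 rose from 8.82% of these genes at 500 bp before the start to the 23.5% at 200 bp inside. It covered as many at 1500 bp before the start (23.5%) and 25% at 5000 bp inside, so the start did not hold its only high value. Polr1c replicate 2 covered the start position of 4 genes (5.88%, against 2.48%). At 300 bp inside, where all genes had their maximum, it covered 2.94% of the set, against 3.88%. At 500 bp inside it covered 0%, against 2.89%.

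**Figure D4:**
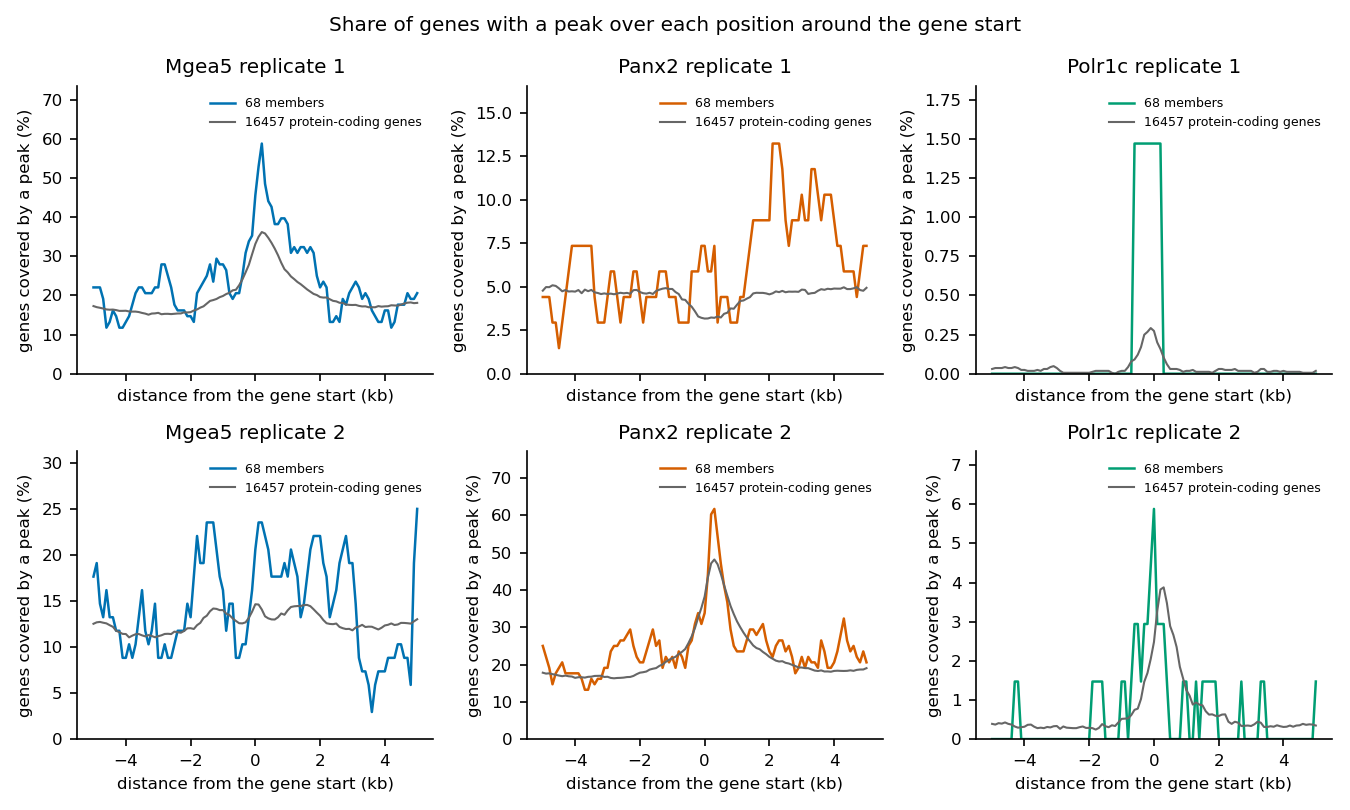
Percent of the 68 genes with a strand, and of all protein-coding genes with one, that were covered by a peak at each distance in kb from the start, for each of the 6 lists; negative distances lie before the start and vertical scales differ. Mgea5 replicate 1 and Panx2 replicate 2 have their maximum just inside the start in both sets, at 58.8% and 61.8% of these genes.

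The promoters themselves were searched for 7 letter strings on either strand in the 300 bases around the start of the promoter table. At most genes that start is the gene end used above. It lies 11569 bp further in at Cox7a2, 3904 bp at Cox5a, 3577 bp at Atp5d and 1138 bp at Atp5g3. Strings and peaks at these genes belong to different positions. Distances of up to 538 bp, the value of Ndufa13, occur at some others. The NRF1 string GCGCA, any base and GCGC was found in 16 of the 68 genes (23.5%), against 6.88% of 16457 promoters of protein-coding genes. The YY1 string AAGATGGC was found in 9 (13.2%, against 3.21%) and the ETS string CCGGAAG in 16 (23.5%, against 12.3%). The SP string GGGCGG (41.2%, against 47.3%), CCAAT (41.2%, against 39.1%), the E-box CACGTG (8.82%, against 7.97%) and TATAAA (11.8%, against 13.5%) stood near the rate of all promoters. The sets of matches overlap, since a promoter can hold several strings. Of the NRF1 matches 7 were among 33 promoters of complex I, 2 of 3 of complex II, 1 of 5 of complex III, 1 of 12 of complex IV and 5 of 15 of complex V. The YY1 matches fell in complex I (7 of 33) and complex V (2 of 15). These are matches of letters and no measured binding, since none of the factors was precipitated.

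**Figure D5:**
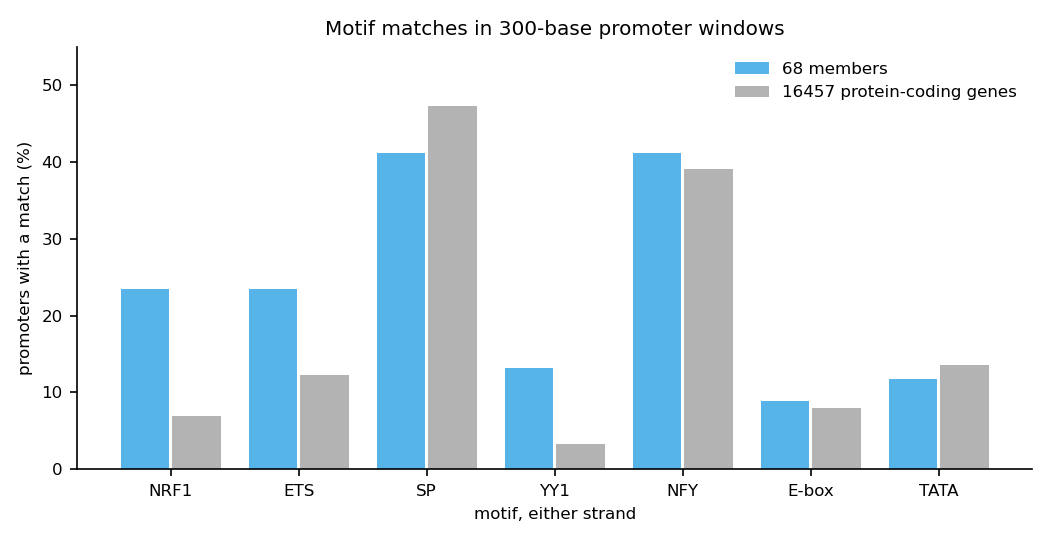
Percent of promoters that hold each letter string, for the 68 genes and for all 16457 promoters of protein-coding genes, on an axis from 0. The NRF1, YY1 and ETS strings are at 23.5%, 13.2% and 23.5% of the 68 genes, against 6.88%, 3.21% and 12.3%.

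Other genes of the pathway were read by the same rule and backgrounds. Both Mgea5 replicates had peaks at 43 of 47 assembly factor genes (91.5%) and at 71 of 78 genes of mitochondrial ribosomal proteins (91.0%), against 72.9% of the subunit genes and 67.4% of all protein-coding genes. They also had peaks at 10 of 13 genes of the tricarboxylic acid cycle, 9 of 10 regulators and both electron carriers, Cycs (1.74 and 1.60) and Cyc1 (1.52 and 1.69). The highest were Mrpl21 (3.11 and 3.26) and Mrpl1 (3.02 and 2.96), above every subunit gene in both replicates, with −log10 q of 4.18 and 5.80, and of 3.17 and 4.50. Among assembly factors Pet100 (2.14 and 2.16), needed for complex IV, and Ndufaf7 (2.07 and 2.27), a methyltransferase of complex I, were highest. Suclg1 (2.46 and 1.85) and Idh3b (1.95 and 2.24) led the cycle, and Yy1 (1.98 and 2.32) and Ppargc1b (1.65 and 2.25), a coactivator, led the regulators.

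For Panx2 the counts with both replicates were 15 of 47 assembly factors, 25 of 78 ribosomal proteins, 6 of 13 cycle genes, 2 of 10 regulators and 0 of 2 carriers, against 21.2% of all protein-coding genes. The shares were 31.9% for assembly factors and 32.1% for ribosomal proteins, next to 30.6% for the subunits. The leading pairs were Cox10 (1.76 and 3.37) and Nubpl (1.76 and 2.65), Mrpl33 (1.76 and 2.65) and Mrpl35 (1.93 and 2.32), Cs (1.98 and 2.14) and Ogdh (1.79 and 2.16), and Tfb2m (1.76 and 2.06) and Tfam (1.78 and 1.70). Polr1c had both replicates at 1 gene of these lists, Mrpl58 (6.24 and 3.14), whose end window holds n-TRcct5 and n-TRcct3 of the cluster that lies between Mrpl58 and Atp5h. In replicate 2 alone Polr1c had 8 of 47, 13 of 78, 6 of 13, 4 of 10 and 1 of 2 genes, against 18.4%. Assembly factors (17.0%) and ribosomal proteins (16.7%) were thus near the background. Cycle genes (46.2%) and regulators (40%) were above it, as complex V was (41.2%), in short lists and without a test. The regulators include Gabpa, inside which the Polr1c peaks of Atp5j lie.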

How the data were processed

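The samples were ChIP-seq libraries of Mgea5, Panx2 and Polr1c, 2 each, taken to their groups from the labels; the 2 input libraries were not analysed here. Per the submitters' processing notes, mm10 was the build, and the tools were MACS3 3.0.0a5, Bowtie2 2.3.5 and Trim Galore. Not given in the sources used here are the caller's control, its cut-offs, read depth and duplicate filters. The lowest −log10 p was 1.00 in the Mgea5 and Panx2 lists and 2.0 in the Polr1c lists. For each peak the authors deposited a score (not used), a fold (the ratio over the caller's local background), and −log10 p and −log10 q. These were used to describe, rank and filter peaks within a list.

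Genes, tRNA genes and promoter sequences came from RefSeq tables of GRCm38.p6. Peaks were joined to windows of 1000 bp on each side of both gene ends, at 1 bp of overlap, with Python 3.11.15, pandas 2.3.3 and numpy 2.4.6, and the join was tested on simulated data. A gene's fold and q in a list are the highest fold and the lowest q of its peaks, with no peak as 0. No test was run: counts stand beside the share of all 20665 genes. Depth is unknown, so no interval is given. Spearman values used scipy 1.17.1 and figures matplotlib 3.10.9.

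The members and lists were chosen with earlier results of these data known. Named genes were, per protein, the 10 with the highest geometric mean fold of both replicates, every gene with a −log10 q of at least 2, genes in all 6 lists, genes without Mgea5 peaks, the highest Mgea5 gene per complex, tissue-restricted isoforms, and the 2 highest genes of each related list; the Polr1c replicate 2 genes, the genes in 1 or 5 lists, and groups by role were added after values were seen. Alternatives varied the window, the q threshold, the gene end, the overlap, list length and the genes included.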

Additional observations from a re-analysis of the deposited data

How the results depend on the processing

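No paired analysis was possible because the results are counts from peak lists and come from no test. The share of genes with Mgea5 peaks of both replicates (72.9%) stayed above its background in all 15 alternatives, and in 13 it moved by less than 1.5 times. It was 1.18% (against 0.266%) at a −log10 q of at least 2 and 39.7% (38.7%) at the far end alone. With 1 replicate left out it was 78.8% to 90.6%. Genes with a shared end alone were not among the alternatives, and there the share was 73.1%, below its background of 77.7%.

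The Panx2 share (30.6%) was above its background in 14 of 15 alternatives. At a −log10 q of at least 2 it was 0%, as was the background. It was 17.6% (12.2%) in windows of 500 bp, 55.3% (40.7%) in windows of 2500 bp, 10.3% (9.89%) at the start, 13.2% (8.21%) at the far end, 20% (14%) with at least 50% of the peak in the window, 16.5% (13.5%) with lists of equal length, and 15.3% (9.68%) where replicate peaks had to overlap each other, a rule added after seeing the data. Single replicates gave 31.8% to 90.6%, the higher without replicate 1.

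The Polr1c share (2.35%) rests on 2 genes. It was 0% (0.0608%) at the far end and 1.19% (0.456%) without genes with a tRNA gene in a window, also added after seeing the data. Single replicates gave 2.35% to 20%, the higher without replicate 1, against 18.4%. The complex V share in Polr1c replicate 2 (41.2%) was 13.3% to 52.9% over 7 alternatives chosen after seeing the data, each above its background. Except where a stricter threshold or smaller window leaves fewer peaks, the cause of these shifts was not tested.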

Other observations

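Markers of the labelled cell type and of other brain cell types were read by the same gene-end rule, as positions and not as expression. Both Mgea5 replicates had peaks at 5 of 7 neural progenitor markers, 1 of 4 neuron, 3 of 4 astrocyte, 1 of 3 oligodendrocyte, 3 of 4 microglia and 3 of 3 endothelial markers, against 67.4% of all protein-coding genes. Both Panx2 replicates had peaks at 0 of 7 progenitor markers, 2 of 4 neuron and 1 of 4 microglia markers and at none of the other classes, against 21.2%, and replicate 2 alone had one at every marker, against 84.7%. Polr1c replicate 2 had peaks at 2 of 7 progenitor markers and at none of the other classes, against 18.4%.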
